A study of Mus musculus with 2 samples.

Results

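Mir139, Mir149, Mir151, Mir652 and Mir744 are 5 microRNA genes that each lie inside an intron of a protein-coding gene, and they were taken by symbol from the 2202 microRNA genes counted in heart tissue. All 5 were found in both tables by their gene identifiers. They were chosen by their high read counts in these libraries and for having no close paralog, so their levels below are a description and were not tested. The study sequenced small RNA, with a labelled size range below 30 whose unit is not stated, from the heart of adult female mice labelled as strain 5xFAD/CAST and aged 8 to 10 months. Its 2 libraries are numbered as biological replicates 1 and 2 of 1 group, with no wild-type, untreated or other control group. The 5xFAD line, a mouse model of Alzheimer disease, carries transgenes driven by a neuronal Thy1 promoter, and CAST is an inbred strain of wild-derived origin. The labels do not state whether the sampled animals carried the transgenes. A single donor identifier is given for both libraries, whose spread may therefore be technical, and every p-value below measures departure from counting error in these libraries only.

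A microRNA is cut from a hairpin precursor, and either arm of the hairpin can become the mature strand. The mature strand guides an Argonaute protein to messenger RNAs, mainly through its seed, bases 2 to 8 from the 5′ end. A precursor inside an intron is usually transcribed with its host gene and can be released before or during splicing, although some intronic microRNAs have promoters of their own. The 5 hosts here encode proteins of different kinds, though Ptk2 and Map2k4 both encode kinases. Pde2a encodes phosphodiesterase 2A, an enzyme that breaks down cyclic AMP and cyclic GMP. Gpc1 encodes glypican-1, a heparan sulfate proteoglycan of the cell surface. Ptk2 encodes focal adhesion kinase, which signals from integrin contacts, and Map2k4 encodes a kinase that activates the JNK and p38 pathways. Tmem164 encodes a transmembrane protein. The messenger RNA of the hosts was not measured in these small RNA libraries.

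The mature arms show how little these microRNAs share with each other. Both arms are given for each gene present in the RefSeq microRNA table (build GRCm38.p6), which held Mir139, Mir149, Mir652 and Mir744 and not Mir151. Each sequence runs 5′ to 3′, with the seed in capitals.

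mmu-miR-139-5p: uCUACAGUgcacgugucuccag

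mmu-miR-139-3p: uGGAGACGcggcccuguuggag

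mmu-miR-149-5p: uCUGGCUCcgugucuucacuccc

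mmu-miR-149-3p: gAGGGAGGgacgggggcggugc

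mmu-miR-652-5p: cAACCCUAggagggggugccauuc

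mmu-miR-652-3p: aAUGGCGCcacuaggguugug

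mmu-miR-744-5p: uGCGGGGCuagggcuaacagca

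mmu-miR-744-3p: cUGUUGCCacuaaccucaaccu

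No 2 of these 8 arms had the same seed. Among the 1738 mature arms of the table, 7 of the 8 seeds were found in no other arm. The exception was the seed AGGGAGG of miR-149-3p, which 3 other mature microRNAs carry. Of the genes of those 3, Mir1943 had 28 counts in replicate 1 and 41 in replicate 2, Mir7016 had 2 and 1, and Gm27740 and Gm27775 had none. No arm had an exact copy, on either strand, in another gene's transcript among the 141767 transcripts of the GENCODE M21 annotation. Counts were given per gene, so reads of the 5p and 3p arms were not separated, and which arm made up the reads is unknown here.

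The hairpins of the 4 genes in the table were 66 to 100 bases long. The Mir149 hairpin had 68.2% G and C, more than 95.9% of the 1005 RefSeq hairpins, and the guanine run of its 3p arm is visible in the sequence above. Mir139 had 58.8% and Mir744 56.0%, above the median of 51.7% over all hairpins, and Mir652 lay below that median. The folding energy predicted by RNAfold was −35.6 kcal/mol for Mir139, −36.7 for Mir149, −49.0 for Mir652 and −44.8 for Mir744. Per base, each of the 4 was more stable than the median hairpin of the table, with 67.6% of hairpins less stable than Mir744 and 92.1% less stable than Mir149.

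In the mm10 annotation all 5 genes were intronic and on the strand of their host, and no host held another microRNA gene on that strand. Mir139 (ENSMUSG00000065446.1) lies on the plus strand of chromosome 7, 101475376 to 101475443, in intron 2 of Pde2a. An overlapping protein-coding locus, Gm45837, spans the same site. Mir149 (ENSMUSG00000065470.1) lies on the plus strand of chromosome 1, 92850378 to 92850443, in intron 1 of Gpc1. Mir151 (ENSMUSG00000065612.1) lies on the minus strand of chromosome 15, 73254815 to 73254882, in intron 22 of Ptk2, and a gene of the other strand, 1700085D07Rik, covers that site. Mir652 (ENSMUSG00000076011.1) lies on the plus strand of chromosome X, 142739000 to 142739097, in intron 2 of Tmem164. Mir744 (ENSMUSG00000076460.1) lies on the minus strand of chromosome 11, 65734733 to 65734832, in intron 3 of Map2k4. The nearest microRNA gene on the same strand was between 405.7 kb (Mir139) and 2809.9 kb (Mir151) away, so none of the 5 sits in a microRNA cluster.

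**Figure D1:**
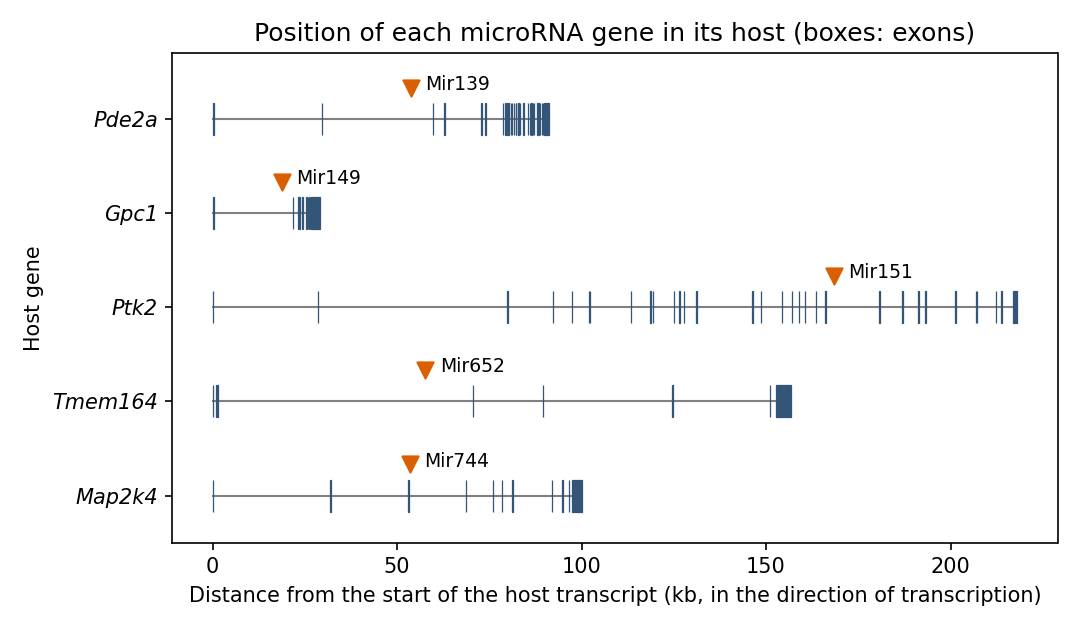
Map of the 5 host transcripts, drawn to scale from the transcript start in the direction of transcription (horizontal axis, kb), with exons as boxes and the microRNA gene as a triangle. Mir744 sits 359 bases from the exon before it and Mir652 lies inside a long intron, 12937 bases from the nearest exon.

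Their places within the host differ, as the map of the host transcripts shows. The distance to the nearest annotated exon of the host was 359 bases for Mir744, 2151 for Mir151, 2754 for Mir149, 5841 for Mir139 and 12937 for Mir652. The median over the 431 microRNA genes of the same kind (intronic, in a protein-coding host, with no run of 18 bases shared with another precursor) was 207 bases. Over the 109 of them that reached 1 CPM in both libraries it was 614 bases, so Mir744 lay nearer to an exon than the median detected gene and the other 4 lay farther away. None of the 5 hairpins fills its intron, as a mirtron does. Hosts ranged from 29.1 kb (Gpc1) to 218.2 kb (Ptk2), against a median host of 47.3 kb.

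The libraries held 4186560 reads assigned to microRNA genes in replicate 1 and 2877511 in replicate 2. Levels are counts per 1000000 of these assigned reads (CPM). A count of 0 allows up to 3 counts, which came to 0.717 and 1.04 CPM. Reads that fitted several loci were 42.4% and 43.2% of all reads and were assigned to no gene, which bears on microRNAs with copies. Heart muscle markers were present, with Mir499 and Mir208a, the microRNAs of myosin heavy chain genes, at 4202 ± 826 and 1356 ± 399 CPM (SD, n = 2). All 6 cardiomyocyte markers reached 1 CPM in both libraries, but the others were far lower. Mir1a-2 had a mean of 70.0 CPM, Mir1a-1 2.64, Mir133a-2 2.17 and Mir133a-1 1.24. Mir133a-1 rested on 6 and 3 counts, and 3 counts is what a count of 0 allows. Of the 7 neuronal markers, 4 had no count (Mir9-2 and the 3 Mir124a genes), while Mir137 had 404 and 126 counts, Mir9-3 had 3 and 63, and Mir9-1 had 0 and 3. By their names the Mir1a, Mir133a, Mir9 and Mir124a genes are numbered copies. Reads that fit several copies are assigned to none, so low counts or 0 for these genes cannot be read as low levels.

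Mir139 was the most abundant of the 5, at 35652 CPM in replicate 1 and 53610 in replicate 2, a mean of 44631 ± 12698 CPM (SD, n = 2). It rested on 149261 and 154264 counts and ranked 10 and 6 among all genes. Ranks here and below leave out reads that fitted several loci, so genes with copies can rank below their true place. Mir149 stood at 23989 CPM (100433 counts) in replicate 1 and 15977 (45974 counts) in replicate 2, a mean of 19983 ± 5666 CPM. It alone was higher in replicate 1, and it ranked 14 in both libraries.

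Mir151, Mir652 and Mir744 formed a lower tier. Mir151 had 4885 CPM (20451 counts) in replicate 1 and 7318 (21059 counts) in replicate 2, with a mean of 6102 ± 1721. For Mir652 the values were 4481 CPM (18762 counts) and 6749 (19421 counts), with a mean of 5615 ± 1604. Mir744 stood at 2633 CPM (11022 counts) and 6222 (17903 counts), with a mean of 4427 ± 2538. These 3 ranked 27, 29 and 35 in replicate 1 and 22, 23 and 25 in replicate 2. The exact 95% Clopper-Pearson intervals of single values were narrow, for example 2584 to 2682 CPM for Mir744 in replicate 1, the lowest value of all, and they cover counting error only.

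**Figure D2:**
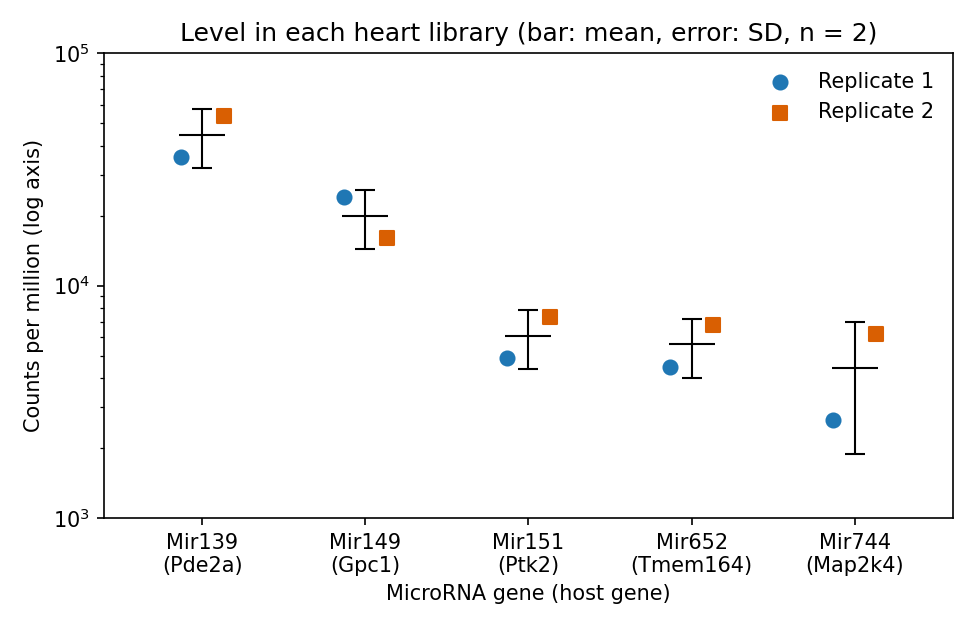
Level of each gene in CPM (log axis), with replicate 1 as circles, replicate 2 as squares, and the mean with its SD as a bar (n = 2). Mir139 and Mir149 stand above the other 3 genes in both libraries, and Mir149 is the only gene whose replicate 1 value is the higher.

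The order Mir139, Mir149, Mir151, Mir652, Mir744 was the same in both libraries. The values of Mir139 (35652 to 53610 CPM) and Mir149 (15977 to 23989 CPM) did not overlap, nor did those of Mir149 and Mir151. The ranges of Mir151, Mir652 and Mir744 overlapped between libraries. Within each library, however, Mir151 exceeded Mir652 (1.09 and 1.08 times its counts), and Mir652 exceeded Mir744 (1.70 and 1.08 times). Summed, the 5 genes took 8.08% ± 1.29 of assigned counts (SD, n = 2). Replicate 1 had 7.16%, with an exact 95% interval from 7.14 to 7.19, and replicate 2 had 8.99%, with an interval from 8.95 to 9.02. Mir139 supplied 49.8% of this sum in replicate 1 and 59.6% in replicate 2. Assigned counts leave out reads that fitted several loci, which makes the share of single-locus genes larger. Over all reads of the tables, unassigned ones included, the 5 genes came to 2.27% and 2.90%.

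Strand played no part in these counts. None of the 5 genes had a read on the opposite strand in either library, which allows at most 3 counts, and the counts regardless of strand were identical to those on the gene's strand. This includes Mir151, whose site a gene of the other strand covers.

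Whether a gene has a single locus depends on how long a shared run counts as a copy. None of the 5 shared 18 bases with another precursor, on either strand, so reads of 18 bases or more that match the reference within these precursors do not also match another annotated precursor. With a run of 16 bases, Mir151 shared sequence with Mir28a and Mir28c, while the other 4 still shared none. Mir28a, in an intron of Lpp on chromosome 16, had 7226 and 5676 counts, or 1726 and 1973 CPM. Mir28c, in an intron of Samd12 on chromosome 15, had 4 counts in replicate 1 and 0 in replicate 2. Mir151 thus had the higher count of the 3 in both libraries.

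Among the 711 microRNA genes that lie in a host and share no run of 18 bases, the 5 genes stood near the top. By mean level Mir139 ranked 2, Mir149 7, Mir151 12, Mir652 15 and Mir744 16, and 206 of the 711 genes reached 1 CPM in both libraries. The 11 others above Mir744 were Mir126a, Mir99a, Mir22, Mir26b, Mirlet7d, Mir30d, Mir99b, Mir191, Mir125a, Mir140 and Mirlet7e. Several of these belong to families with related mature sequences, such as the let-7, mir-30, mir-99 and mir-125 families. Restricted further to the 431 genes in introns of protein-coding hosts, Mir139 ranked 1, Mir149 3, Mir151 5, Mir652 7 and Mir744 8. A gene that overlapped an exon of any annotated transcript of its host was not counted as intronic. This rule left out Mir126a in Egfl7, with a mean of 110547 CPM above that of Mir139, and also Mir22, Mir125a and Mir140. The ranks and shares among the 431 genes depend on it. The 5 genes held 51.5% of the counts of those 431 genes in replicate 1 and 56.3% in replicate 2. Since the 5 were chosen for their levels, these ranks and shares describe them and are not evidence about intronic microRNAs.

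**Figure D3:**
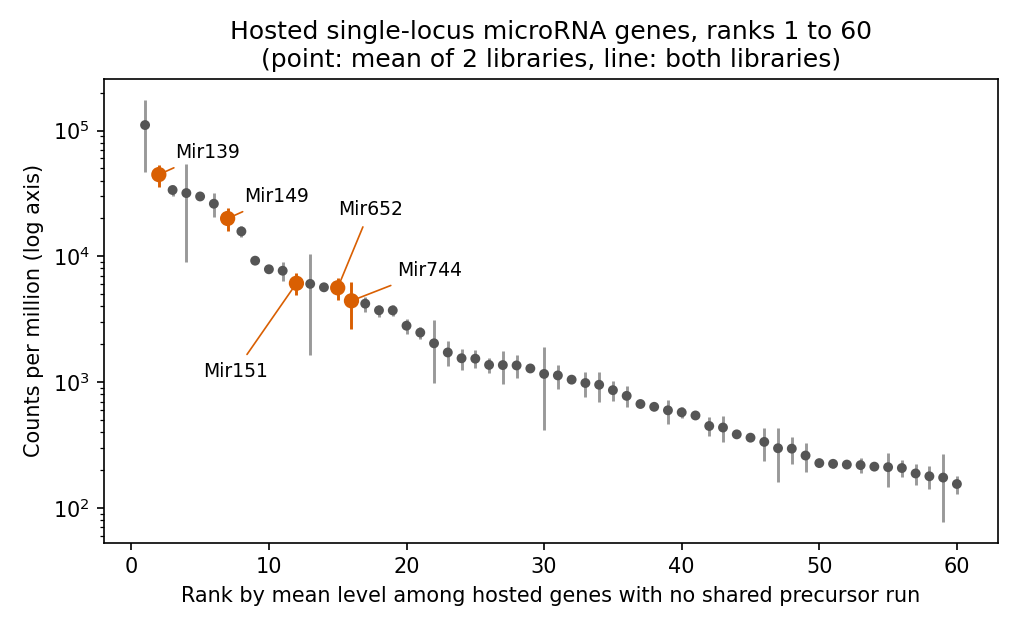
Level in CPM (log axis) of hosted microRNA genes with no shared precursor run, for ranks 1 to 60 by mean level. Points are means of 2 libraries, lines join both libraries, and the 5 genes (labelled) stand at ranks 2, 7, 12, 15 and 16.

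Neighbours in level overlapped with each of the 5. Mir139 stood between Mirlet7i (45311 ± 7860 CPM) and Mir143 (40998 ± 13787 CPM), the microRNA of smooth muscle, and their values overlapped with its own. Mir149 stood between Mirlet7d (26179 ± 8029 CPM) and Mir30d (15776 ± 2093 CPM). Below Mir125a (7676 ± 1858 CPM) came Mir151, followed by Mir140 (6035 ± 6200 CPM), a cartilage microRNA in Wwp2 whose values of 1651 and 10419 CPM enclose those of Mir151. Mir652 had Mirlet7e (5668 ± 523 CPM) above and Mir27b (5376 ± 1098 CPM) below. Mir744 stood between Mir195a (4653 ± 5440 CPM) and Mir499 (4202 ± 826 CPM; all SD, n = 2). Compared with the heart muscle gene Mir499, Mir744 was higher in replicate 2, with 6222 against 3618 CPM, and lower in replicate 1, with 2633 against 4787 CPM.

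By the values in both libraries, the gene most like Mir151 was Mir652, and the reverse. Likeness was the Euclidean distance in log2(CPM + 0.5) over the 2 libraries, among 265 genes with a mean of 10 CPM or more, and it was 0.17 for this pair. The gene nearest to Mir139 was Mirlet7i (distance 0.17), to Mir149 Mir30d (0.50) and to Mir744 Mir320 (0.46). This measure rests on 2 values per gene.

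All 5 genes differed between the libraries by more than counting error, 4 higher in replicate 2 and 1 lower. This was tested for every gene that passed a filter on low counts, with an exact two-sided binomial test on its counts given TMM-scaled totals and Benjamini-Hochberg adjustment at 0.05. All 5 passed the filter. The same test called 63.4% of the 309 genes tested, 35.3% higher and 28.2% lower, and it called all 30 genes with a mean at or above that of Mir744, so the count of calls among the 5 is not particular to them. The test compares 2 libraries and says nothing of a condition.

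Mir744 had the largest difference of the 5, 2.48-fold higher in replicate 2 (log2 ratio 1.31, exact 95% interval 1.28 to 1.35). Of the 309 genes tested, 10 had a higher log2 ratio. Mir139 was 1.58-fold higher (log2 ratio 0.66, interval 0.65 to 0.67), Mir652 1.58-fold (0.66, 0.63 to 0.69) and Mir151 1.57-fold (0.65, 0.63 to 0.68). Mir149 was 1.43-fold lower in replicate 2 (log2 ratio -0.51, interval -0.53 to -0.50). The median log2 ratio was 0.66 over the 5 genes and 0.01 over all genes tested, and the median gene tested differed 1.43-fold in either direction. Genes of all levels enter that background. Of the 30 genes with a mean at or above that of Mir744, the 5 included, 17 were higher in replicate 2 and 13 lower. Against the spread between the libraries that edgeR fitted over 309 genes (a biological coefficient of variation of 0.414, or an SD of 0.85 for a log2 ratio), Mir744 was the only one of the 5 whose difference exceeded 1 SD.

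**Figure D4:**
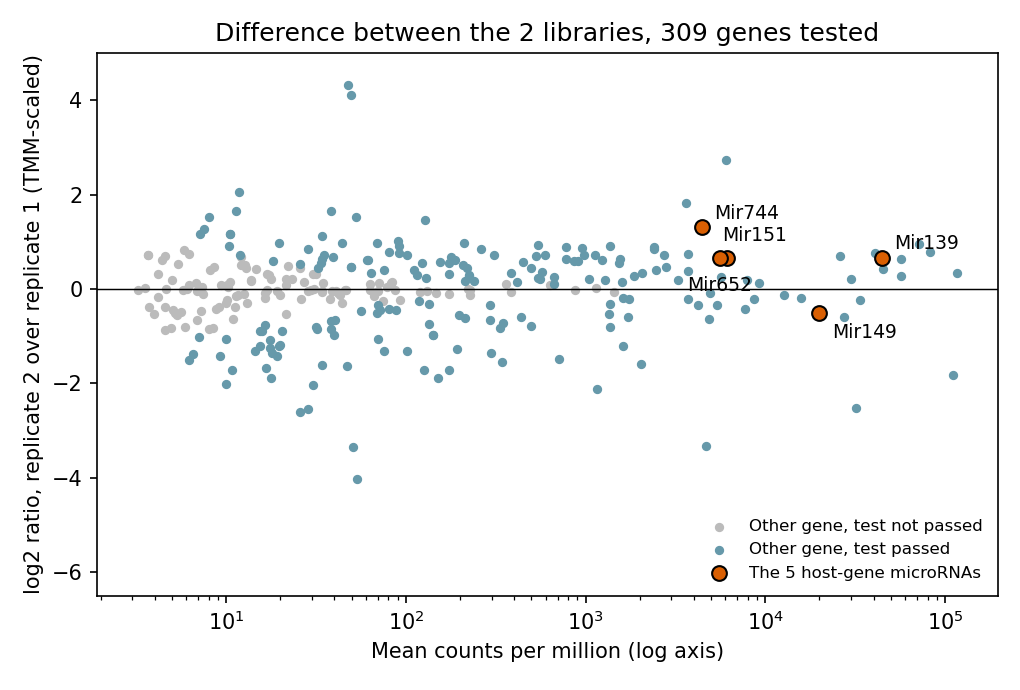
Difference between the libraries for the 309 genes tested, as the log2 ratio of replicate 2 over replicate 1 (TMM-scaled, vertical axis) against mean CPM (log axis), with genes that passed the test in blue and the 5 host-gene microRNAs in orange. Mir139, Mir151 and Mir652 lie at nearly the same ratio, 0.65 to 0.66, Mir744 lies above them at 1.31 and Mir149 below the line at -0.51.

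Ratios between the genes within a library need no scaling between libraries. Mir139 had 7.30 times the counts of Mir151 in replicate 1 and 7.33 times in replicate 2, a change of 1.00-fold (exact 95% interval 0.98 to 1.02). Its ratio to Mir652 was 7.96 and 7.94, a change of 1.00-fold (0.98 to 1.02). Mir151 had 1.09 and 1.08 times the counts of Mir652, a change of 0.99-fold (0.97 to 1.02). These 3 genes lie on chromosomes 7, 15 and X, and the intervals leave room for a change in their proportions of a few percent either way. Fisher's exact tests of these 3 ratios gave adjusted p = 0.806, 0.888 and 0.806, over the 10 pairs of the 5 genes.

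The other 7 pairs changed. Mir139 had 1.49 times the counts of Mir149 in replicate 1 and 3.36 times in replicate 2, a 2.26-fold change (interval 2.23 to 2.29). Mir149 to Mir744 moved most, from 9.11 to 2.57 times. Mir139 to Mir744 moved from 13.5 to 8.62 times. Each of the 7 passed Fisher's exact test after adjustment over the 10 pairs. At this depth that is the usual outcome: of the 435 pairs among the 30 genes with a mean at or above that of Mir744, the same test called 97.9%. The range spanned by Mir139, Mir151 and Mir652 on the log2 scale held no other of the 309 genes, but 34 other genes lay within 0.1 of Mir139, counting Mir151 and Mir652. The near-equal ratios were seen before the pairs were tested.

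Markers of cell types moved between the libraries as well. Summed over each list, the smooth muscle markers (2 of 2 higher) went from 32911 to 56334 CPM and the leukocyte markers (4 of 4 higher) from 5369 to 7640 CPM, the direction of Mir139, Mir151, Mir652 and Mir744. The endothelial marker Mir126a went from 174314 to 46780 CPM, the erythroid markers (2 of 2 lower) from 755 to 230 CPM and the cardiomyocyte markers (2 of 3 tested lower) from 6502 to 4767 CPM, the direction of Mir149. Among markers of other organs, the hepatocyte gene Mir122 was higher in replicate 2, at 57.3 against 19.1 CPM. The neuronal list was mixed. Mir137, the only gene of that list tested, was lower, at 43.8 against 96.5 CPM. Mir9-3, which did not pass the low-count filter, was higher in replicate 2, at 21.9 against 0.717 CPM. The skeletal muscle list had 1 of 2 tested genes lower, and the epithelial list had 1 of 4 higher and 1 lower. The part of cell composition in the differences of the 5 genes was not tested. In bulk tissue, fewer cells of a type and less RNA per cell cannot be told apart.

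A hand-made list of 20 other microRNA genes known from host genes, which left out abundant ones such as Mir126a in Egfl7 and Mir26b in Ctdsp1, moved in both directions. All 20 matched by symbol, each had a mean below that of Mir744, and together they held 1.20% of counts in replicate 1 and 1.29% in replicate 2. In the mm10 annotation 19 of the 20 lay in a same-strand host, and Mir328 did not. Of 19 tested, 78.9% were called, against 63.4% of all genes tested. The call depends on the number of counts, and of the 239 genes with at least 100 counts summed 76.6% were called. Of the 19, 9 had more in replicate 2, 6 had less and 4 did not pass the test. Their median log2 ratio was 0.24, against 0.01 over all genes tested. The most abundant were Mir328 (2066 ± 270 CPM), Mir28a in Lpp (1849 ± 174), Mir423 in Nsrp1 (1719 ± 545) and Mir361 in Chm (1534 ± 351; SD, n = 2). Of these, Mir423 was lower in replicate 2 (log2 ratio -0.59) and the other 3 were higher (Mir328 0.34, Mir28a 0.26, Mir361 0.54). Over the 160 tested genes of the 711 with a host and no shared run, 62.5% were called, close to the share of all genes tested.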

How the data were processed

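Small RNA of 2 heart libraries was sequenced, and the authors deposited 1 table of raw read counts per microRNA gene for each. The deposited readme names build mm10 and annotation M21. An aligner and a counter are not given in the sources used. Reads on the strand of the gene were used. The 4 rows of unassigned reads (unmapped, at several loci, outside genes, ambiguous; 68.4% and 67.8% of reads) stayed out of totals and tests. All 2202 identifiers matched GENCODE M21, from which hosts were taken on the same strand, protein-coding first and then the smallest. The 2 tables were not copies of each other or random splits of 1 library (chi-square 830 per degree of freedom over 709 genes). This value cannot tell separate preparations of 1 sample from separate animals.

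TMM scaling, filterByExpr (minimum count 10) and the dispersion came from edgeR 4.0.16 in R 4.3.3, DESeq2 1.42.0 gave alternative size factors, and RNAfold 2.7.2 folded the hairpins. Python 3.11.15, scipy 1.17.1 and pandas 2.3.3 were used. Sequences are from RefSeq. Clopper-Pearson intervals take in counting error alone, because PCR copies could not be told from separate molecules. No group comparison was possible with 1 group. On simulated Poisson counts for the 309 tested genes, the binomial step called 77 of 100 genes changed 1.5-fold, 84 of 100 changed 2-fold and 3 of 109 unchanged. The simulated libraries had no spread beyond counting error and were scaled by plain totals, so these shares do not carry over to the real libraries. The genes and lists were chosen with earlier results of these data known. Genes named beside the 5 are their neighbours by mean level, the gene nearest over both libraries, the top 4 of the host-gene list, hosted genes above Mir744 and markers. Alternatives covered strand, scaling, filters, denominators, each library left out, the dispersion, the shared run and the pseudocount. The tests of pairs and their background, and the naming of Mir28c and of genes sharing a seed, were added after the values were seen.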

Additional observations from a re-analysis of the deposited data

How the results depend on the processing

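Levels depended on the denominator. With reads regardless of strand, where fewer reads were assigned in all, the 5 genes held 10.8% of counts, with Mir139 at 59098 CPM, Mir149 at 27237, Mir151 at 8081 and Mir652 at 7435. Mir744 moved by less than its SD. Over all reads of the tables the share was 2.58%, with Mir139 at 14277, Mir149 at 6369, Mir151 at 1952, Mir652 at 1796 and Mir744 at 1419 reads per 1000000. Leaving out each replicate gave 7.16 to 8.99% for the share, 35652 to 53610 CPM for Mir139, 15977 to 23989 for Mir149, 4885 to 7318 for Mir151, 4481 to 6749 for Mir652 and 2633 to 6222 for Mir744, where Mir744 fell below its mean by over 1.5 times without replicate 2.

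The log2 ratios of the 5 genes kept their direction and their call under DESeq2 size factors, plain totals, reads regardless of strand and both other filters. Under the edgeR dispersion the ratios of Mir139 (0.66), Mir149 (-0.51), Mir151 (0.65) and Mir652 (0.66) lay within 1 SD of 0.85. The genes called numbered 174 to 214 against 196, the host-gene list 14 or 15 of 19, and the hosted class 667 genes with a run of 16 bases, without Mir151, and 731 with 20. The nearest genes were the same with a pseudocount of 1. No paired analysis was possible because the design holds 1 group, and no difference between libraries can be had with 1 left out. With 2 libraries, their number and not the depth limits the precision.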
